A study of Homo sapiens with 8 samples.

Results

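The genes that copy the genome and supply its building blocks were followed in CSCs (H460C) and in cisplatin-resistant cells (H460R), each hybridized against the parental H460 line. The set held 54 genes taken by name from the array annotation, among 20283 gene names tested, and 53 of them had a probe that passed the filter on dim signals. The members were chosen by function and by name, with no measured value in the rule, but with earlier results of these data known. DNA polymerase epsilon's catalytic subunit POLE was the member left out. Its probe was well above background on 3 of 4 arrays in H460C and on 3 of 4 in H460R but on 0 of the H460 channels.

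H460 is an established human large cell lung carcinoma line. H460 and H460R cells grew attached in RPMI with foetal serum. H460R cells were the survivors of 1 exposure of H460 to 0.5 µg/ml cisplatin for 72 h, grown without the drug afterwards, and are therefore a selected population and not a clone. H460C cells were obtained from untreated H460 kept under non-adherent conditions in a defined DMEM/F12 medium with EGF and FGF-b, where they grew as spheres. The effect of the sphere-forming cells, of the medium and of the lack of attachment cannot be told apart in H460C. From H460C and from H460R there were 2 RNA samples apiece, and every sample went onto a dye-swapped pair of arrays, which made 8 arrays. A single H460 RNA was labelled as the reference of every array, so the test of a ratio leaves out the spread between H460 cultures and the comparisons of the 2 populations with H460 share it. The arrays of each population sat on 1 slide of their own, and slide and population cannot be told apart.

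An array channel had 22834 to 28499 probes that stood well above background. The H460C samples differed by less than the hybridization noise: the difference between them correlated at -0.01 across probes between the dye orientations, while that of the H460R samples correlated at 0.26. H460C is therefore given as both labelled values and their mean, counted as 1 sample with no SD, and H460R as mean ± SD (n = 2). The tests nonetheless took both H460C values as separate ratios, so an H460C p-value does not measure a spread between H460C cultures. In limma both populations shared an estimate of the spread, so the alike H460C values also entered the p-values of H460R and of the contrast. Those p-values therefore do not rest on the spread between the H460R samples alone. The keratins KRT8, KRT18 and KRT19 of simple epithelia were well above background in 16 of 16 channels and EPCAM in 14, while E-cadherin (CDH1) reached that mark in 4. The leucocyte marker PTPRC reached it in 0 channels, and 1 of the 2 probes of the T cell gene CD3E reached it in 14.

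A cell licenses each origin of replication before S phase. The origin recognition complex (ORC) recruits CDC6 and CDT1, which load the MCM2 to MCM7 ring, while geminin (GMNN) holds CDT1 back. The kinase CDC7 with DBF4 and the factors CDC45, GINS and MCM10 then turn the ring into the moving helicase. Polymerases, the PCNA clamp with its RFC loader, the RPA single-strand binding protein, FEN1 and LIG1 copy and seal the strands, and RRM1, RRM2, TYMS, TK1 and DUT provide deoxynucleotides. Many of these genes are textbook targets of the E2F transcription factors, which RB1 restrains until cyclin E and CDK2 act. E2F1 and E2F2 are activators, and E2F7 and E2F8 are repressors that are themselves E2F targets.

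The letters of E2F sites can be read directly in the start regions of these genes, and a few are shown because they mark what many members share. RefSeq (GRCh38.p14) promoter windows of 300 bases, from 250 before to 50 after the gene start, were found for 46 of the 54 members. The members MCM4, MCM5, GINS4, POLD3, RPA2, RPA3, E2F8 and CCNE2 had none in the table. The strings TTTCCCGC, TTTGGCGC, TTTCGCGC and TTTGCCGC were searched on both strands. At least 1 of them lay in a window of 24 of the 46 members, or 52.2%, against 3.99% of all 27305 genes and 3.31% of all 35116 windows in the table. In 19 members a match lay wholly before the start. TTTCCCGC was found in 13 members, TTTGGCGC in 10, TTTCGCGC in 6 and TTTGCCGC in 1. A match is a run of letters and not a measured binding site.

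E2F7, E2F1, CDC6 and RRM2 were looked at first, and of these E2F1 alone had a match before the start. Its stretch is printed first. The others were chosen after their matches and values were seen, as members high in H460C or in both populations, and MCM6 because it holds the densest cluster. Each stretch ends at or before the start, runs 5′ to 3′ on the strand of its gene in GRCh38.p14, and has the matches in capitals.
E2F1, chr20:33686386-33686442, minus strand: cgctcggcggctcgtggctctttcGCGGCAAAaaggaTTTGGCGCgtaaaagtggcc
E2F2, chr1:23531244-23531299, minus strand: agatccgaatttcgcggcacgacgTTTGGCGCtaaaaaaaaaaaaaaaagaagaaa
PCNA, chr20:5126650-5126705, minus strand: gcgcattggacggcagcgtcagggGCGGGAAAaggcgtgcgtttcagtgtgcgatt
GINS2, chr16:85688955-85689009, minus strand: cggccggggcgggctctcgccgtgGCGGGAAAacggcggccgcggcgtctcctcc
TYMS, chr18:657590-657645, plus strand: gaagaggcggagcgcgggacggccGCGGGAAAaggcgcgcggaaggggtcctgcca
MCM6, chr2:135876560-135876619, minus strand: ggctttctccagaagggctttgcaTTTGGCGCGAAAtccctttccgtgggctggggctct
MCM6, chr2:135876498-135876557, minus strand: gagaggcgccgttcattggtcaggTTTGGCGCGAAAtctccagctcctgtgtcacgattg
MCM7, chr7:100101398-100101430, minus strand: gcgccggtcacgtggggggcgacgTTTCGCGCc
In PCNA, GINS2 and TYMS the capitals are TTTCCCGC read on the opposite strand. In each MCM6 stretch TTTGGCGC and, on the opposite strand, TTTCGCGC overlap within the same run.

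Every tested member was higher in H460C than in H460. Values are log2 ratios of H460C or H460R over H460, where 1 is a doubling, averaged over the dye swap. All 53 members passed the limma test (adjusted p of at most 0.05 over all probes, two-sided), and 0 were lower, whereas 37.2% of all gene names tested were called higher and 35.1% lower by the same test. The median log2 ratio of the members was 0.96, which is 1.95-fold, and the median over all genes was 5.2e-05. E2F8 and CCNE2 were among the 53 although their probes passed the filter only through H460C. In 26 members the ratio was above 1. The sign was positive on each of the 4 arrays in 49 of the 53 members, against 34.5% of all genes. When the H460C replicates were averaged into 1 sample, 48 members were still called, and ORC3, ORC5, PRIM2, POLD2 and RPA1, all with log2 ratios under 0.20, were not. The same 5 calls were lost without either H460C replicate.

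In H460R the same genes rose less and not all of them rose. The limma test called 39 members higher and 6 lower than H460, and 8 were not called, against 37.2% of all gene names higher and 33.2% lower. The median log2 ratio of the members was 0.41, or 1.33-fold, beside 0.01 for all genes, and 6 members were above 1. The sign was positive on each array for 36 members (67.9%) and negative on each array for 3 (5.66%). Among all genes the shares in H460R were 32% positive and 27% negative. Rank Products, the more demanding test that the study names, called E2F7 and CDC45 higher in H460C, where it called 0.547% of all gene names higher and 0.508% lower. It multiplied the ranks of the H460C replicates as if they were independent and was not run with them averaged. In H460R it called E2F7 higher, beside 0.478% of gene names higher and 0.488% lower. It called 0 members lower in either population. Without H460R replicate 2 the calls of MCM2 (0.13), POLD1 (0.14), CCNE2 (0.17), RPA2 (0.19), POLE2 (0.37) and GINS1 (0.41) in H460R were lost, and without replicate 1 those of DBF4 (-0.09) and CCNE2 (0.23). In bulk RNA a larger share of cells in S phase and more RNA per cell cannot be told apart.

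**Figure D1:**
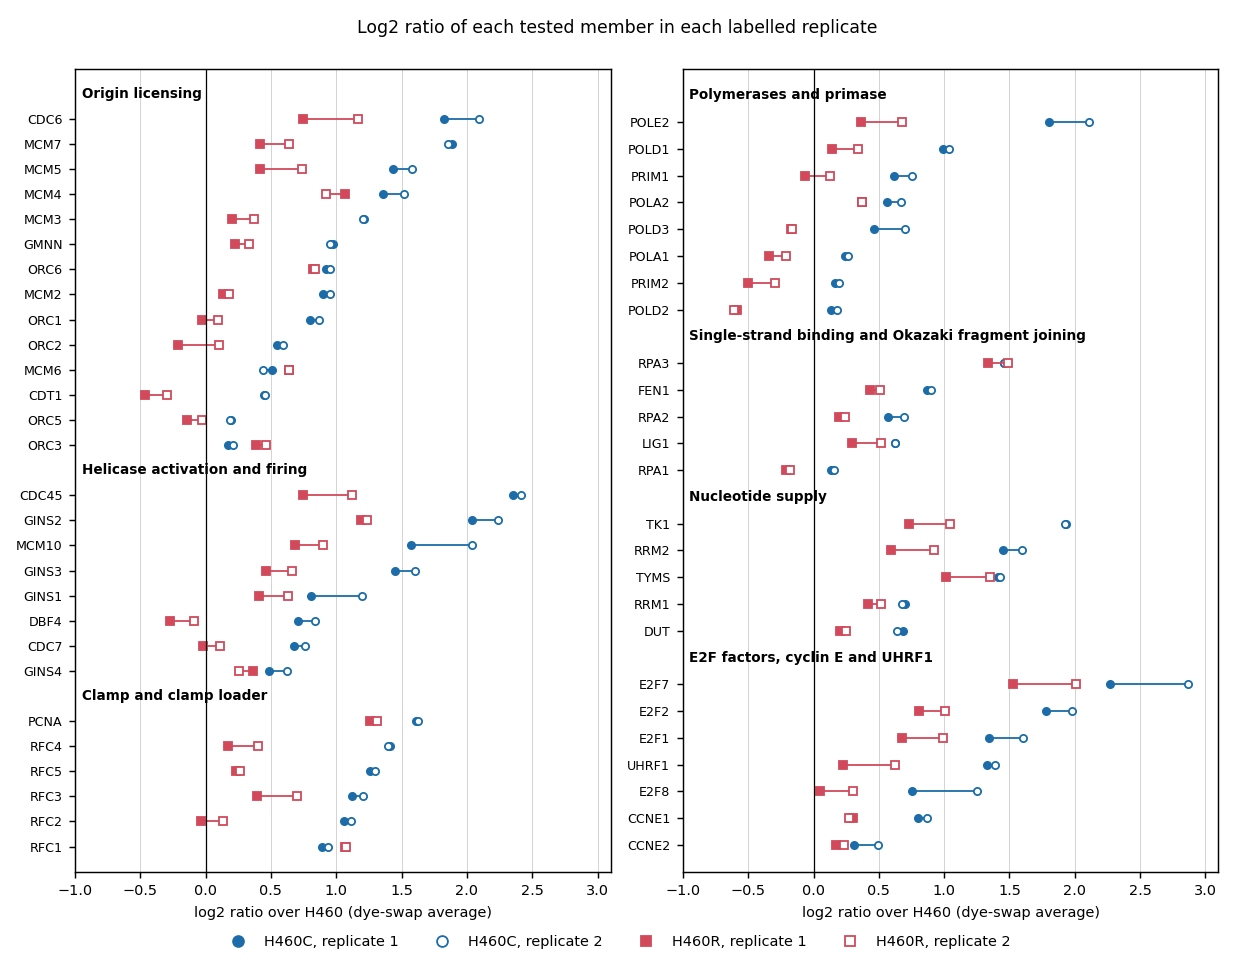
Log2 ratio over H460 of each of the 53 tested members (x axis) by role and, within a role, from the highest to the lowest H460C mean, with a circle for each H460C replicate and a square for each H460R replicate. All circles lie to the right of 0, and the squares run from -0.61 for POLD2 to 2.01 for E2F7.

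E2F7, a repressor of E2F targets, had the highest ratio of all members in both populations. It had log2 ratios of 2.27 and 2.87 in the H460C samples and of 1.52 and 2.01 in the H460R samples. The mean was 2.57 in H460C (adjusted p = 9.2e-05, limma) and 1.77 ± 0.34 (SD, n = 2) in H460R (adjusted p = 0.00038, limma). Of all genes, 0.345% had a higher ratio in H460C and 0.399% in H460R. One of its H460C arrays was an outlier spot and was filled from the other 3. Without probes filled in this way E2F7 had no value, and Rank Products then called 1 member higher in H460C and 0 in H460R.

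The activators E2F1 and E2F2 rose in both populations. E2F1 was at 1.35 and 1.60 in H460C and at 0.67 and 0.99 in H460R. E2F2 was at 1.78 and 1.98 in H460C and at 0.81 and 1.01 in H460R on its brightest probe. A second probe of E2F2 went the other way, at -0.16 and -0.19 in H460C and at -0.36 and -0.47 in H460R, and was called lower in both populations. The direction of E2F2 thus depended on the probe.

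The probes of E2F8 and CCNE2 passed the filter on dim signals only through H460C, where they were highest. Their H460C calls and contrasts are therefore not independent of the filter. E2F8, the other repressor, was at 0.75 and 1.25 in H460C. In H460R it was at 0.05 and 0.31 and was not called (adjusted p = 0.25, limma). H460 was not well above background for E2F8 on any H460R array, and H460R was on 3 of 4, so no fold is given there. The call in H460R depended on the processing: E2F8 was called higher with the software's log ratio (1.30), the authors' table (0.17) and no background subtraction (0.20). Cyclin E1 (CCNE1), the partner of CDK2 at the entry into S phase, was at 0.83 in H460C and 0.29 ± 0.02 in H460R. Cyclin E2 (CCNE2) was dim: H460 was not well above background on any of the 8 arrays. In H460C CCNE2 was at 0.31 and 0.50, a mean of 1.32-fold (adjusted p = 0.0013, limma). In H460R, itself well above background on 1 of 4 arrays, it was at 0.17 and 0.23 (adjusted p = 0.02, limma), for which no fold is given. Such a bound sets the mean signal of the population against the H460 signal or the lowest signal well above background, whichever was higher, per channel after loess and quantile scaling of the average intensities. UHRF1, which brings the maintenance methyltransferase to new DNA, was at 1.36 in H460C and 0.42 ± 0.28 in H460R, where its mean on the arrays with H460R in Cy3 was -0.037.

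Origin licensing genes rose throughout H460C, 14 of 14, with a median of 0.93. CDC6, the loader, led them at 1.82 and 2.09, a mean of 1.96 (3.88-fold; adjusted p = 6.2e-05, limma). The helicase subunits followed, with MCM7 at 1.89 and 1.85, MCM5 at 1.43 and 1.58 and MCM4 at 1.36 and 1.52. MCM3 was at 1.21, MCM2 at 0.93 and MCM6 at 0.47, so the 6 subunits of 1 ring had ratios between 0.47 and 1.87 over H460. The licensing inhibitor GMNN was at 0.96, ORC6 at 0.93, ORC1 at 0.83 and ORC2 at 0.57. The smallest changes were those of ORC3, at 0.17 and 0.21, and ORC5, at 0.19 and 0.19, the latter with a filled array. Both had a mean of 0.19, and that of ORC3 was -0.000874 on the arrays with H460C in Cy3.

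In H460R 10 of the 14 licensing genes were higher, 1 was lower and 3 were not called, with a median of 0.35. MCM4 (0.99 ± 0.10), CDC6 (0.96 ± 0.30) and ORC6 (0.83 ± 0.01) were the highest. MCM6 was at 0.64 in both samples, above its H460C values. ORC3 was at 0.38 and 0.46, again above its H460C values. CDT1, the licensing factor itself, went the other way, at -0.46 and -0.30 (mean -0.38 ± 0.12, adjusted p = 0.0014, limma), while it was at 0.44 and 0.45 in H460C. A second probe of CDT1 gave the same calls in both populations. ORC1, ORC2 and ORC5 had means of 0.03, -0.05 and -0.08 and were not called, although ORC2 was called lower without H460R replicate 2 (-0.21). The second probe of ORC5, at -0.20, was called lower, and ORC5 was also called lower with the Cy3 arrays (-0.22), the authors' table (-0.13), the software's log ratio (-0.15) and the mean of its probes (-0.14).

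The helicase activators were among the highest in H460C. All 8 rose, with a median of 1.26. CDC45, the factor that joins the ring to the fork, was at 2.36 and 2.41, a mean of 2.38 (5.22-fold; adjusted p = 2.2e-05, limma), and 0.449% of all genes had a higher ratio. GINS2 was at 2.04 and 2.24 and MCM10 at 1.57 and 2.04. The other GINS subunits were lower, with GINS3 at 1.53 (1 filled array), GINS1 at 1.00 and GINS4 at 0.55. The kinase CDC7 and its activator DBF4 were at 0.72 and 0.77.

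In H460R 6 of these 8 were higher. GINS2 was at 1.19 and 1.24, a mean of 1.21 ± 0.03. CDC45 was at 0.74 and 1.12 and MCM10 at 0.69 and 0.90. GINS1, with H460 not well above background on any H460R array, was at 0.41 and 0.63, a mean of 1.43-fold estimated from dim H460 signals. CDC7 was not called, at -0.02 and 0.11. DBF4 was lower, at -0.27 and -0.09 (adjusted p = 0.041, limma), on arrays with H460R in Cy3 but not on those with H460R in Cy5, where the mean was 0.010. Its second probe, at -0.02, was not called.

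The clamp PCNA and all 5 subunits of its loader rose in H460C, with a median of 1.22 over the 6 genes. PCNA was at 1.61 and 1.63 in H460C and at 1.26 and 1.31 in H460R, a mean of 1.29 ± 0.04. The small loader subunits RFC2 to RFC5 differed between the populations. RFC2 was at 1.06 and 1.12 in H460C and at -0.04 and 0.13 in H460R, where it was not called. RFC4 was at 1.41 and 1.40 in H460C and at 0.17 and 0.40 in H460R. RFC5, with 1 filled array, was at 1.28 in H460C and 0.25 ± 0.02 in H460R, and RFC3 at 1.16 and 0.55 ± 0.22.

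The large subunit RFC1 was at 0.89 and 0.94 in H460C and at 1.07 and 1.07 in H460R on its brightest probe, so that the H460R values were the higher. A second RFC1 probe was at 0.32 and 0.26 in H460C and at 0.09 and 0.08 in H460R, where it was not called. The order of the populations for RFC1 thus depended on the probe.

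The polymerases and primase were divided in H460R. In H460C all 8 tested were higher, with a median of 0.60, while in H460R 3 were higher, 3 lower and 2 not called, with a median of -0.07. POLE2, the second subunit of polymerase epsilon, was at 1.80 and 2.11 in H460C (mean 1.96, adjusted p = 4.3e-05, limma) and at 0.37 and 0.68 in H460R. POLD1, the catalytic subunit of polymerase delta, was at 1.02 in H460C and 0.24 ± 0.14 in H460R. POLA2 was at 0.61 and 0.37 ± 0.00. The untested POLE was at 0.22 and 0.40 in H460C and at 0.08 and 0.17 in H460R.

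Of the 6 members that fell in H460R, 3 were in this group. POLD2, the accessory subunit of polymerase delta, was the lowest at -0.58 and -0.61, a mean of -0.60 ± 0.02 (adjusted p = 0.00011, limma). The large primase subunit PRIM2 was at -0.50 and -0.29 (mean -0.40 ± 0.15, adjusted p = 0.0019, limma), although its second probe, at 0.05, was not called. POLA1, the catalytic subunit of polymerase alpha, was at -0.34 and -0.21 (mean -0.28 ± 0.09, adjusted p = 0.0035, limma). POLD2 was at -1.10 and -1.23 with H460R in Cy5 and at -0.07 and 0.01 in Cy3, and POLA1 at -0.07 and 0.06 in Cy5 and -0.61 and -0.48 in Cy3. PRIM2 was below 0 on all 4 H460R arrays, and so was CDT1. In H460C the same 3 polymerase and primase genes were just above 0, with means of 0.16, 0.18 and 0.26.

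The small subunit PRIM1 was at 0.62 and 0.75 in H460C and at -0.06 and 0.12 in H460R. POLD3 was at 0.46 and 0.70 in H460C, with 1 filled array, and at -0.17 and -0.16 in H460R, where it was not called (adjusted p = 0.058, limma), though it was without either H460C replicate (-0.17). Its second probe was at 0.32 and 0.48 in H460R, also not called, so the sign of POLD3 in H460R depended on the probe.

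For some of the weakest members the sign depended on the dye. POLD2 in H460C was at 0.62 and 0.74 on the arrays with H460C in Cy3 and at -0.34 and -0.38 on those with H460C in Cy5. RPA1 went the opposite way, at -0.24 and -0.26 in Cy3 and at 0.51 and 0.57 in Cy5. POLA1 was at -0.03 on both arrays in Cy3 and at 0.52 and 0.56 in Cy5. The gap between the orientations was alike in the 4 swaps of POLD2 and in those of POLA1. For POLD2 the Cy3 value exceeded the Cy5 value by 0.96 and 1.12 in H460C and by 1.02 and 1.24 in H460R, and for POLA1 the gap was -0.55 and -0.59 in H460C and -0.54 and -0.53 in H460R. A gap that is the same in each swap cancels in the mean over the balanced swap, which is the value given here. CDC45, by contrast, stood between 2.30 and 2.47 on the 4 H460C arrays.

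**Figure D2:**
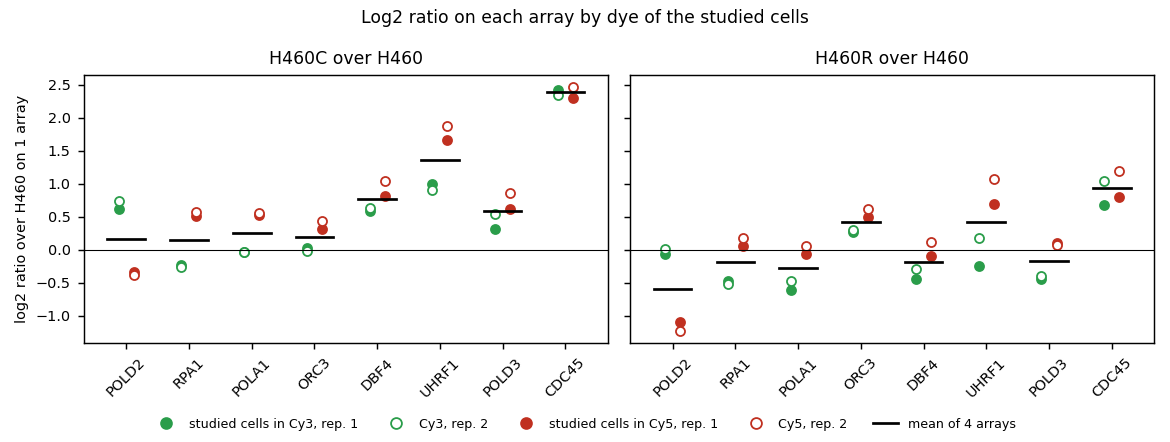
Log2 ratio over H460 on each single array (y axis) for 7 members whose sign depended on the dye or the probe and for CDC45, with the studied cells in Cy3 (green) or Cy5 (red), filled for replicate 1 and open for replicate 2, and the mean of the 4 arrays as a bar. POLD2 lies above 0 in Cy3 and below 0 in Cy5 in H460C, while CDC45 lies above 2 on every H460C array.

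Among the single-strand binding and fragment-joining genes, RPA3 stood apart from the other subunits of its complex. RPA3 was at 1.46 and 1.46 in H460C and at 1.34 and 1.49 in H460R, so that the populations overlapped, and 0.976% of all genes had a higher ratio in H460R. RPA2 (1 filled array) was at 0.63 and 0.22 ± 0.03. RPA1 was at 0.14 and 0.16 in H460C and at -0.21 and -0.18 in H460R (mean -0.19 ± 0.02, adjusted p = 0.0062, limma), with a mean of 0.11 on the arrays with H460R in Cy5. The flap nuclease FEN1 was at 0.88 in H460C and 0.47 ± 0.05 in H460R, and the ligase LIG1 at 0.62 and 0.41 ± 0.16.

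All 5 nucleotide supply genes rose in both populations. Their median was 1.42 in H460C and 0.76 in H460R, the highest of the 7 role groups in each. Thymidine kinase TK1 was at 1.93 and 1.92 in H460C and at 0.73 and 1.05 in H460R. Thymidylate synthase (TYMS), the target of fluorouracil, was at 1.41 and 1.43 in H460C and at 1.01 and 1.35 in H460R, a mean of 1.18 ± 0.24.

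The ribonucleotide reductase subunits moved unequally. The small, cell-cycle-regulated subunit RRM2 was at 1.45 and 1.60 in H460C and at 0.60 and 0.93 in H460R. Its second probe was at 1.26 and 1.36 in H460C and at 0.98 and 1.29 in H460R. The large subunit RRM1 was at 0.69 in H460C and 0.47 ± 0.07 in H460R. DUT, which removes dUTP, was at 0.66 and 0.23 ± 0.03.

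**Figure D3:**
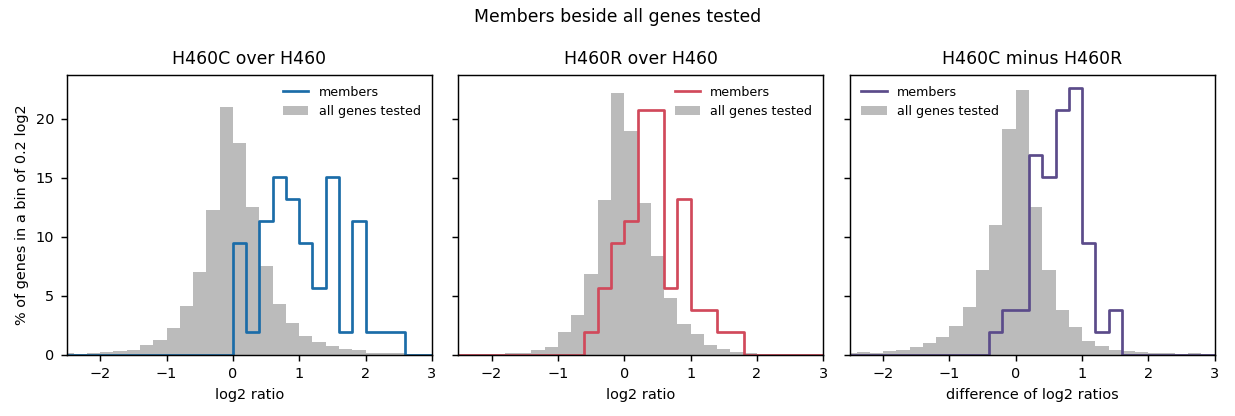
Percent of genes (y axis) in bins of 0.2 on the log2 scale (x axis) for all 20283 gene names tested (grey bars) and the 53 members (line), in H460C over H460, H460R over H460 and the difference between the populations. All genes centre near 0, and the members have medians of 0.96, 0.41 and 0.68.

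The direct comparison of the populations, in which the shared H460 RNA cancels, set H460C above H460R in most members. The limma contrast called 45 members higher in H460C, 1 lower and 7 not called, against 29.0% of all gene names higher and 28.8% lower. The 45 include E2F8, whose probe passed the filter only through H460C. The median difference was 0.68 (1.60-fold), beside 0.01 for all genes. With the H460C replicates averaged into 1 sample, 41 members were higher and 0 lower. Between 38 and 44 were higher when any 1 replicate was left out.

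The largest differences were those of CDC45 (1.45 ± 0.13 SE, adjusted p = 0.00048, limma) and POLE2 (1.44 ± 0.14 SE, adjusted p = 0.00071, limma). MCM7 followed at 1.34 ± 0.09 SE, from 1.87 in H460C and 0.53 ± 0.15 (SD, n = 2) in H460R. RFC4 differed by 1.12, RFC2 by 1.04 and TK1 by 1.04. All 8 helicase activators and all 8 tested polymerase and primase genes were called higher in H460C than in H460R, with median differences of 0.94 and 0.70. Of the 6 members that were lower than H460 in H460R, all were called higher in H460C than in H460R, by 0.34 for RPA1 to 0.95 for DBF4. E2F7 differed by 0.80 ± 0.24 SE (adjusted p = 0.034, limma), a call that was lost without H460C replicate 2 (0.50), H460R replicate 1 (0.56) or H460R replicate 2 (1.04).

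The smaller differences depended on single replicates. GINS1 (0.48) was not called without H460C replicate 2 (0.29), H460R replicate 1 (0.37) or H460R replicate 2 (0.59). GINS4 (0.25) was not called without these same replicates (0.18, 0.30 and 0.19), nor was POLA2 (0.24), at 0.19, 0.24 and 0.25. The calls of E2F1 (0.48) and E2F8 (0.70) were lost without H460R replicate 1, and that of ORC5 without H460C replicate 1 (0.27) or 2 (0.28). RRM1 was not called without H460C replicate 1 (0.21), H460C replicate 2 (0.23) or H460R replicate 1 (0.17).

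Other members were nearly level between the populations. RPA3 differed by 0.05 ± 0.07 SE (adjusted p = 0.59, limma), ORC6 by 0.10 ± 0.05, CCNE2 by 0.20 ± 0.08 and TYMS by 0.24 ± 0.11. Without H460R replicate 2 TYMS (0.41) and the ligase LIG1 (0.33) were called, and without H460C replicate 1 CCNE2 (0.29). RFC1 and MCM6 had the opposite sign, at -0.16 ± 0.05 and -0.17 ± 0.06. ORC3 was the member called lower in H460C, by -0.23 ± 0.06 SE (adjusted p = 0.019, limma), and this call was lost without H460C replicate 1 (-0.22), H460C replicate 2 (-0.25) or H460R replicate 2 (-0.19). The second probe of ORC6 differed by 0.76 and was called higher. The second probe of GINS4 differed by -0.22, called lower, where the brightest probe gave 0.25. That second GINS4 probe passed the filter only through H460R, where it was higher, so its call is not independent of the filter.

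**Figure D4:**
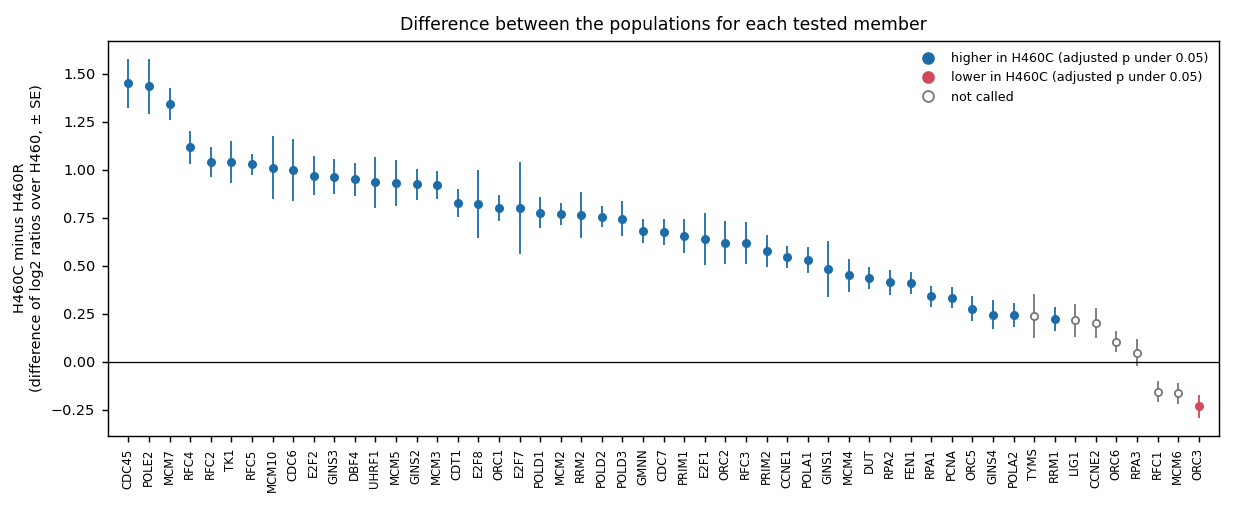
Difference of the log2 ratios, H460C minus H460R (y axis), for the 53 tested members from the highest to the lowest, with the standard error of the limma fit. Filled blue points are the 45 called higher in H460C, the filled red point is ORC3, and the 7 open points were not called.

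Where a gene had more than 1 tested probe, the calls held in H460C more often than elsewhere. A second probe was tested for 17 members and gave the same call in 15 of them in H460C, in 7 in H460R and in 9 in the contrast. The size could differ under the same call: in H460C the second probes of GINS3 and UHRF1 were at 0.64 and 0.48, against 1.53 and 1.36. In H460C the second probe was higher than the first for ORC5, ORC6, PRIM2, FEN1 and POLD3 and lower for the others. That of MCM10 was not called in H460R (0.66) or in the contrast (0.98). The opposite call appeared for E2F2 in both populations and for GINS4 in the contrast, the latter on a probe that passed the filter only through H460R. The second probe of RFC3 was at 0.14 in H460C and not called, against 1.16 on the first, and that of UHRF1 at -0.05 in H460R and not called, against 0.42. RRM2 differed by 0.76 between the populations on its brightest probe and by 0.17, not called, on the other.

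The labelled samples of each population were also set against each other. In H460R 48 of the 53 members were higher in sample 2 than in sample 1, while 54% of all genes were. In H460C 42 of the 53 were, beside 51.5% of all genes. The H460C samples differed by less than the hybridization noise, so no shift between RNA samples can be read from that count. Since a count of this kind appeared there, the count in H460R does not establish such a shift either. The median of the members was 0.36 and 0.46 in the H460R samples and 0.90 and 0.95 in the H460C samples.

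The members with an E2F-type string in their promoter window had a median log2 ratio of 1.16 in H460C and 0.52 in H460R (23 tested). The 22 tested members with a window and no match had medians of 0.90 and 0.27. For the difference between the populations the order was the other way, with 0.68 and 0.76. E2F7, the highest in both populations, and CDC45, the next in H460C, had no match in their windows, and the ranges of the groups overlapped throughout.

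Of 64 other genes of replication, nucleotide supply and the RB1 pathway, listed from general knowledge, 62 were tested, and SAMHD1 and CCND2 were not. In H460C 45 were higher and 9 lower, with a median of 0.52, and in H460R 34 were higher and 19 lower, with a median of 0.24. The 28 other replication and S phase factors resembled the members in H460C, with 25 higher, 1 lower and a median of 0.98. Among them TICRR, which helps to fire origins, was at 1.95 in H460C and 0.43 ± 0.13 in H460R, and the phosphatase CDC25A at 1.62 and 0.39 ± 0.09. The chromatin assembly subunit CHAF1A was at 1.59 and 0.66 ± 0.11, and cyclin A2 (CCNA2) at 1.56 and 0.32 ± 0.20. Without H460R replicate 2 CDC25A (0.33) and CCNA2 (0.18) were not called in H460R.

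The remaining nucleotide genes were mixed. CTP synthase (CTPS1) fell, at -1.20 and -0.27 ± 0.05, and so did IMPDH2 of guanine nucleotide synthesis, at -0.97 and -1.28 ± 0.05. The difference of IMPDH2 between the populations (0.31) was not called without H460C replicate 2 (0.27). CAD, which opens pyrimidine synthesis, was at -0.30 and -0.68 ± 0.13. The mitochondrial kinase TK2 was lower in H460C, at -0.79, and higher in H460R, at 0.19 ± 0.08, a call that was lost without H460R replicate 1 (0.13). RRM2B, the p53-inducible reductase subunit, was at 0.54 in H460C and 0.85 ± 0.13 in H460R. It was lower in H460C than in H460R, by -0.31 (adjusted p = 0.019, limma), and at -0.29 and not called without H460C replicate 1. RRM2 was higher by 0.76 on its brightest probe, but by 0.17 and not called on its second probe.

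The cell cycle inhibitor CDKN1A, a p53 target, rose in both and more in H460R. It was at 0.87 and 0.91 in H460C and at 1.76 and 1.69 in H460R, and the difference of -0.84 was called (adjusted p = 0.00024, limma). Rank Products also called it higher in H460R. CDKN1C, another inhibitor of its family, was at 1.02 in H460C and -0.46 ± 0.04 in H460R. Its probe passed the filter only through H460C. Cyclin D1 (CCND1) was at 0.73 and 1.14 ± 0.00. Its size depended on the dye. In H460C it was at 1.42 and 1.40 in Cy3 and at 0.04 and 0.05 in Cy5, and the Cy5 arrays alone gave no call. In H460R it was at 1.725 and 1.784 in Cy3 and at 0.55 and 0.48 in Cy5.

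RB1, the restraint on the activating E2F factors, had small ratios. It was at 0.17 and 0.15 in H460C (adjusted p = 0.04, limma), a call that was lost without either H460C replicate (0.15 and 0.17), and at -0.18 and 0.00 in H460R, where it was not called, though it was without replicate 2 (-0.18). The difference between the populations (0.25) was called, but not without H460C replicate 1 (0.24), H460C replicate 2 (0.26) or H460R replicate 1 (0.16). The activator E2F3 was at 0.21 in H460C, called with both replicates but not without replicate 1 (0.20) or 2 (0.22). In H460R it was at 0.11 ± 0.08 and not called, though it was without replicate 1 (0.17). E2F5, a repressive E2F, was lower in both, at -0.47 and -0.84 ± 0.01.

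**Figure D5:**
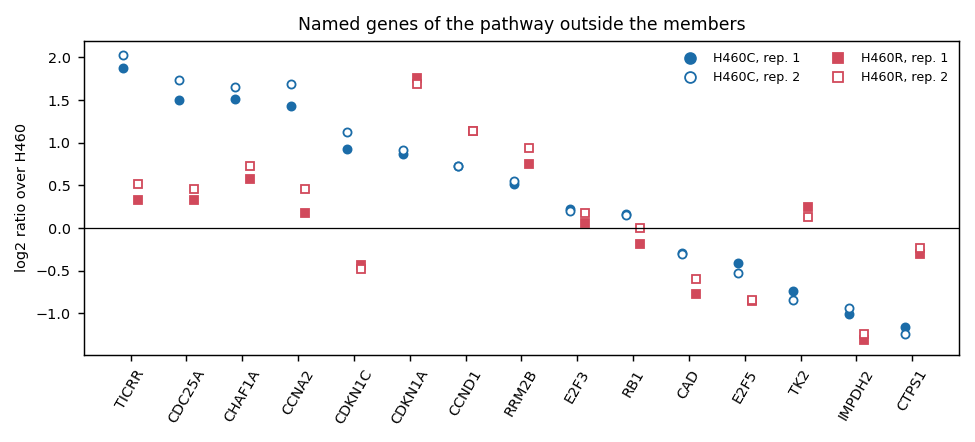
Log2 ratio over H460 (y axis) in each replicate of H460C (circles) and H460R (squares) for the 15 named genes of the pathway that are not members. CDKN1A, CCND1, RRM2B, TK2 and CTPS1 lie higher in H460R, while TICRR, CDC25A, CHAF1A, CCNA2 and CDKN1C lie more than 0.7 higher in H460C.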

How the data were processed

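RNA of H460C and H460R cells was hybridized against H460 RNA on Agilent two-color whole human genome arrays. Per the file headers, the authors extracted the scans with Feature Extraction 10.1.1.1. The deposited median spot and background intensities carry no normalization. The deposited log10 ratio and the authors' log2 table (limma is named in the submitters' processing notes, the rest is not given in the sources used here) served as alternatives, although the selection of the genes had named that table. It gave member medians of 0.92, 0.36 and 0.68. In 1 file the log10 column had lost its decimal points and is a score here, which was divided by 10 to the power of 9. The deposited marks of 0 or 1 for outliers, saturation and background were used.

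Background was corrected with normexp (limma 3.58.1, R 4.3.3, offset 50), and loess was applied within each array, without control spots and with outlier spots at weight 0. All ratios then ran over H460, and the 43376 spots gave 41000 probes. The filter kept the 26046 probes with a share of at least 0.5 of spots well above background on every array of H460C, of H460R or of H460. A missing array was filled from the other 3 of its population so that the dye effect cancelled (1586 tested probes), and 25959 probes were tested. The arrays of a swap were averaged into 1 ratio.

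Rank Products (each direction apart, FDR 0.05) and limma on all 4 ratios (residual df 2, prior df 3.44) were adjusted by Benjamini-Hochberg over all probes. Both took the labelled H460C replicates as 2 ratios. Replicate numbers were not taken as pairs, since nothing in the labels ties them. Each gene is represented by its brightest probe, named through the RefSeq gene table of GRCh38.p14, in which 23958 of 25868 probes with RefSeq names matched. The tests were checked on simulated data with 4 independent ratios, which held neither the alike H460C replicates nor the shared H460 RNA. The number of arrays limits the precision. The members, role groups and lists were chosen with earlier results of these data known. Values in every replicate were to be given for the 6 highest and 6 lowest members of each comparison. The other pathway genes named were the 3 highest and 3 lowest called in each comparison plus CDKN1A, RB1, E2F3, RRM2B and SAMHD1. Another gene of that list is not reported here.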

Additional observations from a re-analysis of the deposited data

Results flagged for a closer look

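The difference between the populations was tested directly for each gene named, and 46 of the 53 members and 14 of the 15 other named genes of the pathway passed (limma contrast, adjusted p of at most 0.05). The values below are differences of log2 ratios over H460, H460C minus H460R. A population and its slide cannot be told apart in any of these differences.

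Among the licensing genes MCM7 differed by 1.34, CDC6 by 1.00, MCM5 by 0.93, MCM3 by 0.92, CDT1 by 0.83 and ORC1 by 0.80. Smaller differences were those of MCM2 (0.77), GMNN (0.68), ORC2 (0.62), MCM4 (0.45) and ORC5 (0.28), and ORC3 was the member with a negative one, at -0.23. The helicase activators differed by 1.45 for CDC45, 1.01 for MCM10, 0.96 for GINS3, 0.95 for DBF4, 0.92 for GINS2, 0.68 for CDC7, 0.48 for GINS1 and 0.25 for GINS4. In the clamp and its loader the differences were 1.12 for RFC4, 1.04 for RFC2, 1.03 for RFC5, 0.62 for RFC3 and 0.33 for PCNA.

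The polymerase and primase genes differed by 1.44 for POLE2, 0.78 for POLD1, 0.76 for POLD2, 0.75 for POLD3, 0.65 for PRIM1, 0.58 for PRIM2, 0.53 for POLA1 and 0.24 for POLA2. RPA2 and FEN1 each differed by 0.41 and RPA1 by 0.34. The nucleotide supply genes differed by 1.04 for TK1, 0.76 for RRM2, 0.44 for DUT and 0.22 for RRM1. On its second probe RRM2 differed by 0.17 and was not called. The E2F group differed by 0.97 for E2F2, 0.94 for UHRF1, 0.82 for E2F8, 0.80 for E2F7, 0.64 for E2F1 and 0.54 for CCNE1.

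On their brightest probes CDT1, DBF4, POLA1, PRIM2, POLD2 and RPA1 were called above H460 in H460C and below it in H460R. Both samples of each population had that sign. TK2 was the reverse of these. ORC5 and POLD3 had the same signs as CDT1 in all samples but were not called in H460R. On the arrays of a single dye orientation the sign turned for POLA1, POLD2 and RPA1 in H460C and for DBF4 and RPA1 in H460R.

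Outside the members the differences were 1.53 for TICRR, 1.48 for CDKN1C, 1.24 for CCNA2, 1.23 for CDC25A, 0.93 for CHAF1A, 0.39 for CAD, 0.38 for E2F5, 0.31 for IMPDH2 (not called without H460C replicate 2, at 0.27) and 0.25 for RB1. The call of RB1 was lost with the H460C replicates averaged and without either of them (0.24 and 0.26) or H460R replicate 1 (0.16). RRM2B (-0.31), CCND1 (-0.41), CDKN1A (-0.84), CTPS1 (-0.93) and TK2 (-0.98) were lower in H460C than in H460R.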

How the results depend on the processing

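Leaving aside the test against a 1.5-fold minimum, 47 of the 53 calls in H460C over H460, 27 of 45 in H460R over H460 and 29 of 46 in the contrast held under every alternative that gave the gene a value (16 to 18 with that minimum). E2F7, RFC5 and RPA2 had no value without filled probes. Against that minimum 32 members were higher in H460C, 9 were higher and 0 lower in H460R, and 11 were higher and 0 lower in the contrast. Rank Products in H460C called 0 members higher with the Cy3 arrays alone or the software's log ratio, and 1 with offset 0 or without filled probes. In H460R it called 0 with either dye alone, with the software's log ratio or without filled probes, and it could not be run without a replicate. Members called lower numbered 1 in H460C with either dye alone. In H460R they were 3 with the Cy5 arrays and 2 after median centring. In the contrast they were 0 with the H460C replicates averaged, the Cy5 arrays or median centring, 2 with the Cy3 arrays or gene means, and 3 with the authors' table, the software's log ratio, no background subtraction or the stricter filter, and without a replicate 0 to 1. The replicate number as a block gave 48 higher and 1 lower in the contrast. Deviations of same-numbered samples correlated at 0.22, which with 2 pairs does not show pairing.

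The median in H460C was 1.01 with the Cy5 arrays, 1.17 with the software's log ratio, 0.92 with gene means, 1.10 after median centring, 1.03 with offset 0 and 0.90 to 0.96 without a replicate. In H460R it was 0.32 with the Cy3 arrays and 0.29 with gene means. The median difference was 0.79 with the software's log ratio and 0.56 to 0.75 without a replicate. With a replicate left out, the lone sample was assumed to vary like the other population. Signs of called values turned for ORC3 (-0.000874), POLA1 (-0.029) and RPA1 (-0.25) in H460C with the Cy3 arrays and for POLD2 (-0.36) with the Cy5 arrays. In H460R they turned for DBF4 (0.010) and RPA1 (0.11) with the Cy5 arrays, and for UHRF1 (-0.037) with the Cy3 arrays. POLD3 in H460R was at 0.55 with the Cy3 arrays and at 0.40 without filled probes because its second probe was read there. ORC1, CDC7, PRIM1 and POLD3, not called in H460R, had opposite signs in the dye orientations on their brightest probes. The dye alternatives rest on 4 of the 8 arrays, and other causes were not tested. Leaving out the filled probes was chosen after seeing the data.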
